A study of Rattus norvegicus with 9 samples.

Results

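The genes described are the nuclear-encoded subunits of the mitochondrial respiratory chain in rat dorsal root ganglia (DRG), with the assembly factors and isoforms that share their names. They were taken by gene symbol, as the rows named Nduf, Uqcr, Atp5, Sdha to Sdhd or Cox4 to Cox8 in the deposited expression table. Of 20413 genes listed, 91 matched, and 89 of these reached the minimum mean of 0.1 FPKM (fragments mapped to a gene, divided by transcript length in kilobases and by the size of the library) over the 9 libraries, beside 17187 genes tested in all. The 89 comprised 44 genes of complex I, 4 of complex II, 8 of complex III, 16 of complex IV and 17 of complex V. Both genes under the minimum were listed at 0 in most libraries. They were Cox7b2, a testis isoform, and the row named Ndufs6, whose gene ID RefSeq lists as the pseudogene Ndufs6-ps1.

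The respiratory chain sits in the inner mitochondrial membrane. Complex I (NADH dehydrogenase, Nduf genes) and complex II (succinate dehydrogenase, Sdh genes) feed electrons from NADH and succinate to ubiquinone, complex III (Uqcr genes) passes them to cytochrome c, and complex IV (cytochrome c oxidase, Cox genes) gives them to oxygen. Complexes I, III and IV pump protons, and complex V (ATP synthase, Atp5 genes) uses the gradient to make ATP. Sensory neurons of the DRG carry long axons with a high demand for ATP, and mitochondrial changes in these neurons have been studied in several models of neuropathic and ischemic pain.

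All 9 libraries came from the right L4–6 DRG of male, young adult Sprague Dawley rats without a genetic modification, collected at day 10, with 1 library per rat and 3 rats in each group. The controls, named Sham here and Con in the labels, went through anesthesia and had an opened ring placed on the limb, without ischemia. CPIP rats (chronic post-ischemia pain, a model of complex regional pain syndrome type I) had the right hind paw made ischemic by a tight O-ring for several hours and then reperfused, and CPIP+EA rats had the same injury and electroacupuncture (EA) at 100 Hz once daily for 10 consecutive days. The O-ring acts on the paw, while the ganglia measured here lie at the spine, and no group received needles without current or EA without CPIP. The comparisons asked whether the injury changed transcript levels in the ganglia and whether EA changed them in injured rats.

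The tissue label held against its markers, with all 10 neuron markers detected and summed neuron marker levels between 9822 and 12326 FPKM. A ganglion holds neurons, satellite glia, Schwann cells and vessels together, so fewer cells of a type and less RNA per cell cannot be told apart. Summed Schwann cell markers ranged from 6925 to 10996 FPKM in Sham, 6580 to 11785 after CPIP and 4608 to 9164 after CPIP+EA. Summed skeletal muscle markers ranged from 10.5 to 20.2 FPKM in Sham, 8.38 to 168 after CPIP and 13.9 to 52.2 after CPIP+EA. Summed erythroid markers ranged from 488 to 1557 FPKM in Sham, 266 to 827 after CPIP and 272 to 2435 after CPIP+EA, and summed neutrophil markers from 48.8 to 135, 30.6 to 243 and 63.5 to 569 FPKM. In both lists the groups overlapped, and the one listed 0 was that of Hba-a1 in Sham 3. Between 18279 and 18456 genes were above 0 in each library.

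The promoters of the chain's genes are known for sites of the nuclear respiratory factors NRF1 and GABP (NRF2) and of YY1, which often lies over the transcription start. Promoter sequences were available for 76 of the 89 genes, from RefSeq on the GRCr8 build, as windows of 300 bases. YY1-type letters (AAGATGGC, either strand) stood in 15 of the 76, or 19.7%, against 4.71% of the promoters of 13061 genes tested. NRF1-type letters (GCATGCGC, either strand) stood in 10, or 13.2%, against 4.34%, and GABP-type letters (CCGGAAGT, either strand) in 7, or 9.21%, against 6.83%. Sp1-type letters (GGGGCGGG, either strand) stood in 11, or 14.5%, against 26.9%, and MEF2-type letters (TATTTATA, either strand) in 1, or 1.32%, against 0.972%. These are matches of letters, with no measure of binding. The sequences below run 5′ to 3′ from 100 bases before the start to 30 bases after it, and capitals mark such matches. Cox8a and Cox8b are shown as the ubiquitous and the muscle form of the same complex IV subunit, which lay far apart in level, and Uqcrc1 (a core subunit of complex III) and Atp5o (the stalk subunit of ATP synthase that confers oligomycin sensitivity) as members with both an NRF1-type and a YY1-type match.
Cox8a (chr1:213833594-213833723, minus strand): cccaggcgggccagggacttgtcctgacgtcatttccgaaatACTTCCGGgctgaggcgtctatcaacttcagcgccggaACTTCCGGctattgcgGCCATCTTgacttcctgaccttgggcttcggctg
Cox8b (chr1:205408244-205408373, minus strand): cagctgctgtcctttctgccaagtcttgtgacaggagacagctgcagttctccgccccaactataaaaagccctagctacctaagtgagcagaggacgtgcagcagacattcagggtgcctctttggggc
Uqcrc1 (chr8:118468123-118468252, plus strand): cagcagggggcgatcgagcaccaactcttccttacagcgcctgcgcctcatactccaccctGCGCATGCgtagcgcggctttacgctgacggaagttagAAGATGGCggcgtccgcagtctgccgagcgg
Atp5o (chr11:44657454-44657583, minus strand): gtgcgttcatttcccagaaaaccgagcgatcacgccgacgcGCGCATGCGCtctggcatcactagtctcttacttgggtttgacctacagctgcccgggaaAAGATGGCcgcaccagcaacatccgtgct

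The Cox8a window held a pair of GABP-type matches and a YY1-type match, all as the reverse complement of the letters given above, while none of the 5 motifs was in the Cox8b window. The 300-base window of Cox8b held 5 CpG pairs against 16 in that of Cox8a. Over the promoters of 4 tissue isoforms the median was 6.5 CpG pairs, against 20 over all 76 and 19 over all genes tested. Of those 4 isoform promoters, that of Ndufa4l2 held the YY1-type and the Sp1-type letters.

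The genes of the chain were mostly at high levels in the ganglion. The median gene had a mean of 125 FPKM over the 9 libraries, 71 of 89 genes reached 50 FPKM against 1789 of 17187 genes tested, and the summed FPKM of the 89 made up 2.87% to 3.31% of a library's total. The complexes ranked by the median FPKM of their genes as complex IV at 243, complex V at 238, complex III at 138, complex I at 104 and complex II at 85.2. Within each complex the genes spread widely, so the order of the medians of neighbouring complexes was not a separation of their genes. Cox6a1 had the highest mean over the 9 libraries (677 FPKM), with 703 ± 68.6 FPKM in Sham, 657 ± 27.4 after CPIP and 671 ± 44.8 after CPIP+EA (SD, n = 3). It encodes the widely expressed form of a complex IV subunit that regulates the enzyme. Atp5b, the catalytic beta subunit of ATP synthase, had a mean of 655 FPKM, was above Cox6a1 in CPIP+EA, and stood at 650 ± 12.2, 618 ± 17.5 and 697 ± 46.4 FPKM (SD, n = 3), and in Sham and CPIP+EA these levels differed from those of Cox6a1 by less than the SD of Cox6a1.

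Complex IV was also led by Cox8a, at 560 ± 47.4, 562 ± 44.8 and 592 ± 52.2 FPKM in Sham, CPIP and CPIP+EA, and Cox4i1, at 488 ± 32.2, 496 ± 26.1 and 522 ± 49.2 FPKM (SD, n = 3). Both are nuclear subunits that surround the catalytic core of the enzyme, and their levels overlapped between groups. In complex V, Atp5j2, a membrane subunit, averaged 452 FPKM over the 9 libraries and Atp5h, a stalk subunit, 337 FPKM. Complex III was led by the small subunits Uqcr11 at 259, Uqcr10 at 221 and Uqcrh at 214 FPKM. Complex I was led by Ndufa4 at 296, Ndufs5 at 251 and Ndufb9 at 212 FPKM, and Ndufa4, placed in complex I by its name, is now assigned to complex IV. In complex II, Sdhb, the iron-sulfur subunit, averaged 149 FPKM, against 92.7 for the flavoprotein Sdha, 77.6 for Sdhc and 77.5 for Sdhd, the membrane anchors.

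**Figure D1:**
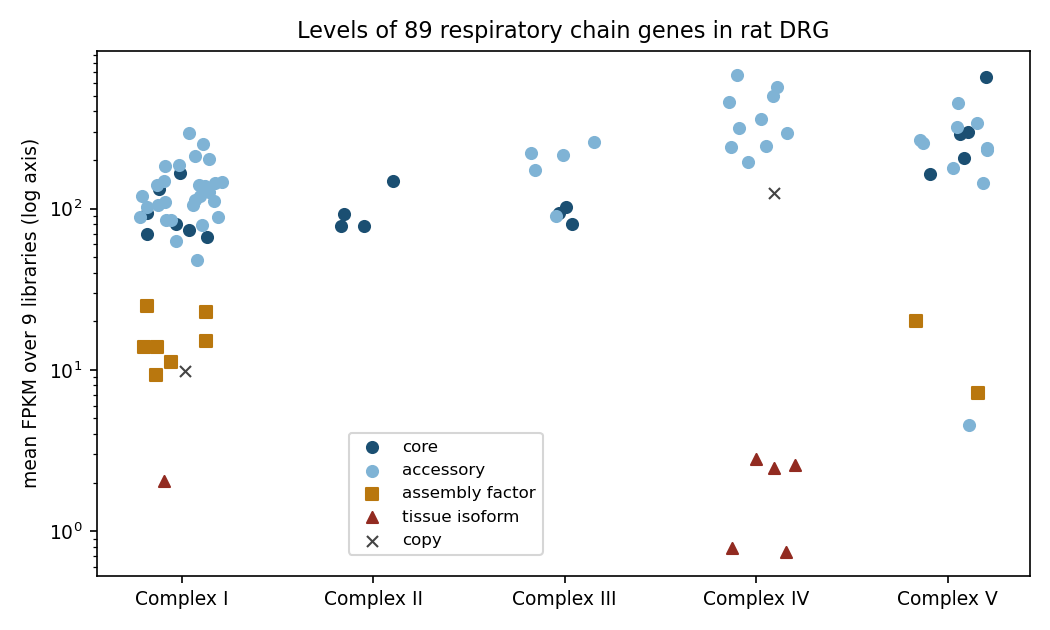
Mean FPKM over 9 libraries on a log axis for each of 89 genes, by complex, with colour and shape giving the role. Core and accessory subunits lie mostly between 48.2 and 677 FPKM, assembly factors between 7.19 and 24.8, and tissue isoforms below 3 FPKM. The light blue point of complex V at 4.56 FPKM is Atp5f1.

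Levels also differed by role. Of 72 core and accessory subunits, 71 had a mean between 48.2 and 677 FPKM, and the exception was Atp5f1. The 9 assembly factors, which help to build the complexes and do not stay in them, lay between 7.19 FPKM (Atp5s) and 24.8 FPKM (Ndufaf5). The grouping by role was made after the values had been seen. Where a complex had both roles, the median of the core subunits was below that of the accessory subunits in complex I (80.7 against 120 FPKM) and complex III (94.4 against 214 FPKM). In complex V it was above it (288 against 246 FPKM) with only Atp5a1, Atp5b, Atp5c1, Atp5d and Atp5e labelled core. The genes of the membrane ring, Atp5g1, Atp5g2 and Atp5g3, at 179, 144 and 254 FPKM, were labelled accessory. The order in complex V depends on that labelling.

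The isoforms known from muscle, testis or hypoxic tissue were at low levels beside their ubiquitous partners in each library. Cox8b was at 0.2, 1.21 and 0.21 FPKM in Sham, 0.4, 1.63 and 0.41 after CPIP and 0.4, 0.81 and 1.83 after CPIP+EA, against 519 to 630 FPKM for Cox8a. Cox6a2, the heart and skeletal muscle form of Cox6a1, was at 0.52, 0.39 and 0.13 FPKM in Sham, 0.26, 2.78 and 0.13 after CPIP and 0.13, 0.78 and 1.58 after CPIP+EA. Its groups overlapped, and its highest library was CPIP 2. That library also had the highest summed skeletal muscle markers, at 168 FPKM, with CPIP+EA 2 and 3 next at 52.2 and 48.5 FPKM, and their part in the levels of Cox6a2 and Cox8b was not tested. Cox4i2, a form of Cox4i1 induced by low oxygen, averaged 2.78 FPKM, Cox6b2, a testis form, 2.58 FPKM, and Cox7a1, a muscle form, 2.45 FPKM. Ndufa4l2, a hypoxia-induced relative of Ndufa4, was at 1.64, 2.04 and 2.94 FPKM in Sham, 2.3, 3.97 and 1.39 after CPIP and 1.01, 2.09 and 1.13 after CPIP+EA. Its groups overlapped, and its smallest adjusted p was 0.583 (limma, Benjamini-Hochberg), in CPIP+EA against Sham.

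Across the 9 libraries the chain varied little. The median gene's highest library exceeded its lowest by 1.28-fold on the FPKM + 0.5 scale, and 76 of 89 genes stayed within 1.5-fold. The libraries nevertheless shared shifts of the whole gene group, which overlapped between the treatments. The median deviation of the 89 genes from their own 9-library means, in log2 units, was -0.08, 0.04 and 0.12 in Sham 1 to 3, -0.02, -0.10 and 0.01 in CPIP 1 to 3 and -0.10, 0.06 and 0.07 in CPIP+EA 1 to 3. Sham spanned the widest range of the groups. Sham 3 had the highest value of 40 of the 89 genes, while CPIP 2 had the lowest value of 28, CPIP+EA 1 of 26 and Sham 1 of 19. The 95 cytosolic ribosomal protein genes (Rpl and Rps, a list added after the values had been seen) had median deviations of -0.24, 0.00 and 0.09 in Sham, 0.02, -0.06 and 0.03 after CPIP and -0.17, 0.06 and 0.26 after CPIP+EA. Within each group the same library was lowest for them as for the 89 genes, and so it was for 37 assembly factors with other symbols. The 10 neuron markers were instead highest in Sham 1 (0.14) and CPIP+EA 1 (0.08) within those groups. The same held for 13 citric acid cycle genes (0.02 and 0.06), whose lowest CPIP library was CPIP 2 (-0.06). The part of the shift shared by the 89 genes in the results that follow was not tested. Over all genes tested the median deviations lay between -0.03 and 0.03.

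**Figure D2:**
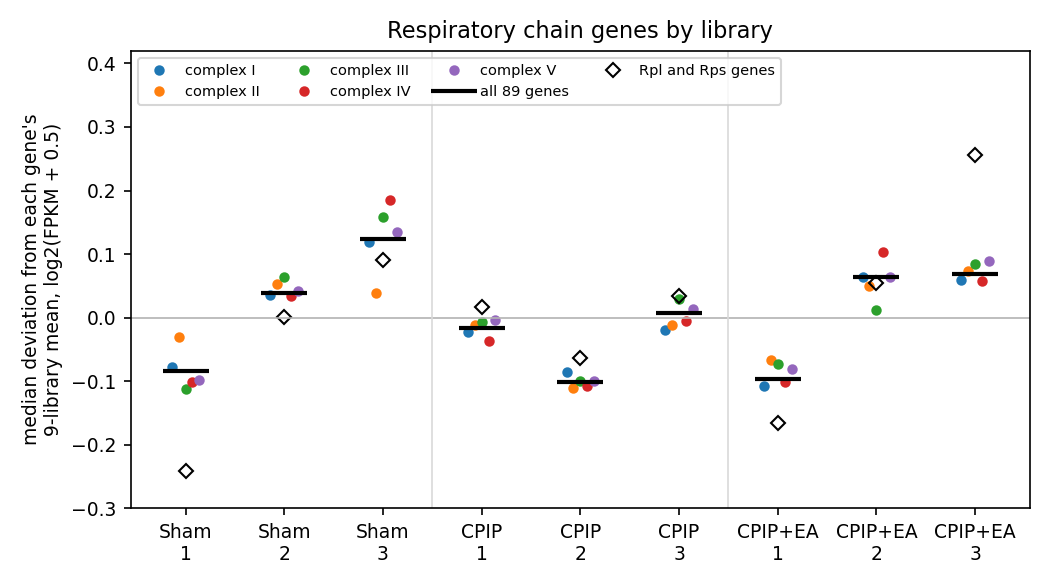
Median deviation of log2(FPKM + 0.5) from each gene's 9-library mean, by library. Coloured points are the 5 complexes, the black bar all 89 genes and the open diamond the 95 Rpl and Rps genes. The 5 complexes move together from library to library, and the 89-gene medians overlap between the 3 groups.

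For each comparison, log2(FPKM + 0.5) values were fitted with limma across all genes tested, and a gene was called at an adjusted p under 0.01 (Benjamini-Hochberg) and a change of at least 1.5-fold. These p-values measure the spread between single rats. None of the 89 genes was called in CPIP against Sham, where 0.355% of all genes tested were called, in CPIP+EA against CPIP, where 0 of all genes were called, or in CPIP+EA against Sham, where 0.483% were called. For 82 of 89 genes in the first comparison, and for 81 in each of the others, the 95% confidence interval of the change, not adjusted for the number of genes, lay wholly within 1.5-fold in both directions. The genes with wider intervals were Ndufa10l1, Ndufa4l2, Cox6a2, Cox6b2, Cox8b and Atp5f1 in every comparison, Cox7a2l2 in CPIP against Sham, and Ndufc1 and Cox4i2 in both comparisons with CPIP+EA. Each pair of comparisons shares the libraries of a group, so they are not independent.

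**Figure D3:**
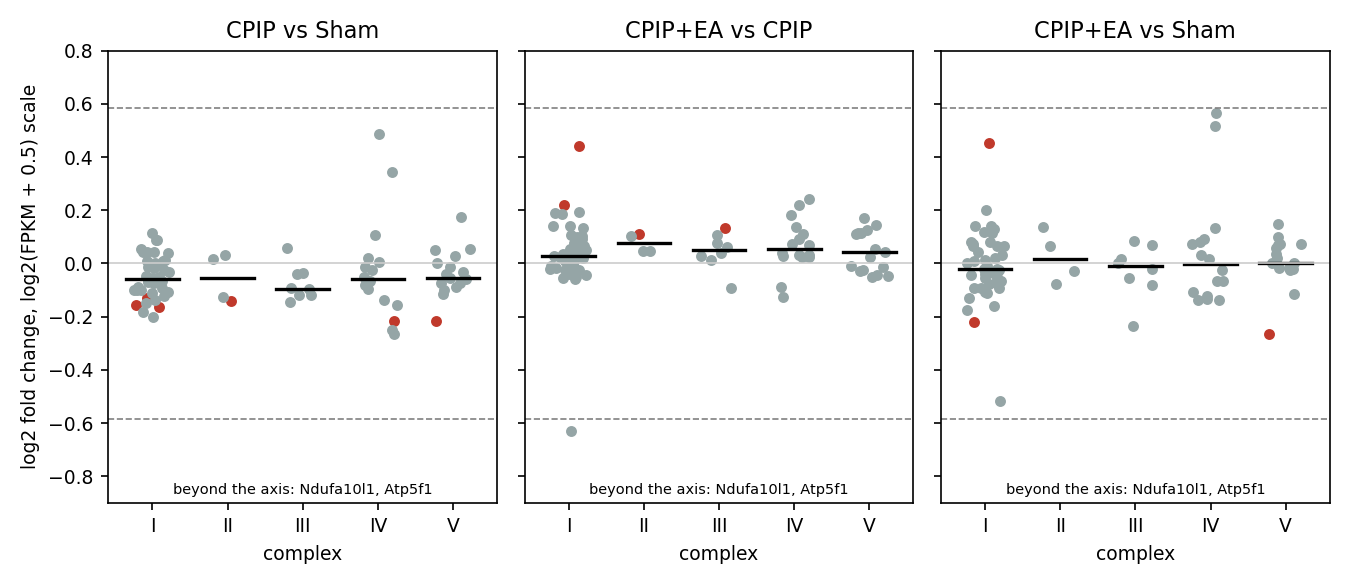
Log2 fold change on the log2(FPKM + 0.5) scale of each gene, by complex, in the 3 comparisons. Black bars are medians of the complexes, red points have an unadjusted p under 0.05, and dashed lines mark 1.5-fold. Nearly all points lie between the dashed lines, and Ndufa10l1 and Atp5f1, which are listed at 0 in some libraries, lie beyond the axis.

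In CPIP against Sham the small differences lay mostly downward. At an unadjusted p under 0.05, 7 genes were lower and 0 higher, beside 4.06% lower and 4.61% higher of all genes tested. The 7 include Ndufa10 and Atp5f1, whose values are uncertain as described below. The count rested on single libraries, at 12 without Sham 1, 4 without CPIP+EA 2, 3 without CPIP 1, 2 without CPIP 3 and 1 without Sham 2 or without CPIP 2, and it was 11 on a TPM scale and 3 without the variance trend. In 10 genes every CPIP library lay below every Sham library and in 1 gene above, beside 7.90% and 7.98% of all genes. The change was below 0 in 63 of 89 genes, against 8959 of 17187 genes tested, with median log2 fold changes of -0.06 and -0.01. Among genes with a mean of at least 50 FPKM, it was below 0 in 52 of 71 genes of the chain and in 893 of 1789 of all. The median of the 89 genes was -0.11 without Sham 1 and -0.0023 without Sham 3. Of 10 neuron markers, 6 had a change below 0, with a median of -0.16 log2 units, 2 lower and 1 higher at an unadjusted p under 0.05, and 4 below and 2 above Sham without overlap. In the lists of other cells, 9 of 9 skeletal muscle markers (median 1.13) and 3 of 4 adipocyte markers (0.27) had a change above 0. So did 5 of 6 neutrophil markers (0.17), 5 of 6 Schwann cell markers (0.08) and 4 of 6 macrophage markers (0.12). All 6 of 6 erythroid markers (-0.71) had one below 0. The change was above 0 in 3 of 6 satellite glia markers (-0.09), 3 of 6 pericyte markers (0.0041) and 3 of 5 endothelium markers (0.01). The summed muscle markers were at 35.4, 168 and 8.38 FPKM in CPIP 1 to 3, the last below every Sham library. The part of these markers in the comparison was not tested. The medians by complex were -0.06 for complex I, -0.05 for complex II, -0.09 for complex III, -0.06 for complex IV and -0.06 for complex V, so the complexes did not stand apart from each other.

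Sdha, the flavoprotein that oxidizes succinate, had the smallest p of the group in this comparison. It was at 96.96, 97.98 and 94.31 FPKM in Sham, 89.92, 84.51 and 87.64 after CPIP and 94.05, 95.57 and 93.67 after CPIP+EA. All CPIP libraries lay below both other groups, by a log2 fold change of -0.14 ± 0.048 (SE) against Sham with an adjusted p of 0.393 (limma, Benjamini-Hochberg). Of the other subunits of its complex, Sdhd was at 78.67, 84.82 and 80.05 FPKM in Sham and 75.54, 71.96 and 75.62 after CPIP, without overlap, whereas Sdhb and Sdhc overlapped. The 4 subunits of complex II therefore did not share a direction against Sham, with log2 fold changes of -0.14, 0.02, 0.03 and -0.13 for Sdha to Sdhd.

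In complex I, Ndufs1, the large iron-sulfur subunit that takes part in electron entry, was at 97.35, 102.77 and 94.26 FPKM in Sham and 90.6, 85.48 and 92.5 after CPIP. The groups did not overlap, and the log2 fold change was -0.13 ± 0.057 (SE), with an adjusted p of 0.565 (limma, Benjamini-Hochberg). Ndufaf1, an assembly factor of the membrane arm, was at 15.89, 16.35 and 17.46 FPKM in Sham, 14.41, 15.08 and 14.66 after CPIP and 13.28, 15.47 and 13.71 after CPIP+EA. It lay below Sham in all 6 injured rats, with log2 fold changes of -0.16 after CPIP and -0.22 after CPIP+EA and adjusted p of 0.572 and 0.244 (limma, Benjamini-Hochberg). Ndufaf2 and Ndufb4 were also without overlap, with log2 fold changes of -0.20 and -0.10.

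In complex III, Uqcrc2, a core subunit, was at 95.26, 101.16 and 93.32 FPKM in Sham, 87.62, 90.18 and 89.18 after CPIP and 94.79, 96.77 and 101.34 after CPIP+EA. All 3 CPIP libraries lay below the other 6, with an adjusted p of 0.604 against Sham (limma, Benjamini-Hochberg). In complex IV, Cox7a1 was at 2.56, 2.8 and 2.68 FPKM in Sham and 2.26, 2.15 and 2.3 after CPIP, a log2 fold change of -0.22 with an adjusted p of 0.545 (limma, Benjamini-Hochberg). The gene ID of that row was not found in RefSeq, which gives the symbol Cox7a1 to another row of the table, named LOC687508. That row was at 3.63, 4.72 and 4.81 FPKM in Sham and 2.29, 3.62 and 4.51 after CPIP, with overlap.

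In complex V, Atp5o was at 232.28, 278.33 and 285.21 FPKM in Sham, 240.73, 204.7 and 237.76 after CPIP and 219.4, 226.04 and 214.39 after CPIP+EA. CPIP overlapped Sham and CPIP+EA did not, with log2 fold changes of -0.22 ± 0.095 and -0.26 ± 0.095 (SE) and adjusted p of 0.572 and 0.302 (limma, Benjamini-Hochberg). Atp5b was at 636, 657.55 and 656.85 FPKM in Sham, 626.2, 598.02 and 630.02 after CPIP and 681.8, 749.41 and 660.61 after CPIP+EA. Its 3 groups did not overlap, with CPIP lowest and CPIP+EA highest, at a log2 fold change of -0.07 ± 0.078 for CPIP against Sham and 0.17 ± 0.078 for CPIP+EA against CPIP (SE). Atp5s, which RefSeq names Dmac2l, was the 1 gene with all CPIP libraries above Sham, at 6.44, 6.14 and 7.3 FPKM in Sham and 7.89, 7.35 and 7.38 after CPIP.

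Atp5f1, the peripheral stalk subunit b that RefSeq names Atp5pb, was listed at 6.25, 9.43 and 9.58 FPKM in Sham, 0, 6.35 and 0 after CPIP and 6.25, 3.14 and 0 after CPIP+EA. The other 16 genes of complex V were above 0 in every library, and its partner in the stalk, Atp5h, stood between 299 and 369 FPKM, so the listed zeros are given as listed values and no fold change is drawn from them. Its adjusted p was 0.509 in CPIP against Sham (limma, Benjamini-Hochberg).

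In CPIP+EA against CPIP the small differences lay mostly upward. At an unadjusted p under 0.05, 4 genes were higher and 1 lower, beside 2.22% and 2.07% of all genes tested. In 10 genes every CPIP+EA library lay above every CPIP library and in 1 gene below, beside 4.84% and 3.40% of all genes. The change was above 0 in 64 of 89 genes, against 9289 of 17187 genes tested, with medians of 0.04 and 0.01 log2 units. The count at an unadjusted p under 0.05 was 8 without CPIP+EA 1, and the median was 0.10 without CPIP+EA 1, 0.02 without CPIP+EA 2 or CPIP+EA 3 and 0.01 without CPIP 2, as well as 0.02 on a TPM scale and 0.01 after quantile normalization. The change was above 0 in 7 of 10 neuron markers (median 0.04 log2 units), 6 of 6 erythroid markers (0.77), 6 of 6 neutrophil markers (0.52) and 4 of 4 adipocyte markers (0.19). It was below 0 in 6 of 6 Schwann cell markers (-0.53), 5 of 6 pericyte markers (-0.20) and 6 of 9 skeletal muscle markers (-0.11). It was also below 0 in 4 of 5 endothelium markers (-0.04), 4 of 6 macrophage markers (-0.05) and 3 of 6 satellite glia markers (-0.06). The part of these markers in the comparison was not tested. Among genes with a mean of at least 50 FPKM, it was above 0 in 53 of 71 genes of the chain and in 1198 of 1789 genes of the whole table, with medians of 0.04 and 0.03. All 4 genes of complex II, 7 of 8 of complex III and 14 of 16 of complex IV had a change above 0, with medians of 0.08, 0.05 and 0.06, beside 29 of 44 in complex I and 10 of 17 in complex V. With the role labels given above, core subunits had a median of 0.10 and accessory subunits one of 0.03.

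Ndufc1, an accessory subunit of the membrane arm of complex I, had the largest upward difference with CPIP among genes above 0 in every library. It was at 35.61, 42.91 and 50.29 FPKM in Sham, 43.77, 42.37 and 42.48 after CPIP and 50.87, 61.41 and 63.82 after CPIP+EA. All 3 CPIP+EA libraries lay above all others, and the lowest of them exceeded Sham 3 by less than the SD of either group. The log2 fold change was 0.44 ± 0.124 (SE) against CPIP with an adjusted p of 0.996, and 0.45 ± 0.124 against Sham with an adjusted p of 0.156 (limma, Benjamini-Hochberg). Over the alternative settings its log2 fold change against CPIP lay between 0.38 and 0.54, with adjusted p of 0.568 or more, and against Sham between 0.33 and 0.57, with adjusted p of 0.0794 or more. The promoter of Ndufc1 held none of the 5 motifs.

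Ndufa10, an accessory subunit that lies in the membrane arm, was at 88.94, 92.06 and 90.85 FPKM in Sham, 84.59, 80.5 and 78.9 after CPIP and 94.52, 100.79 and 89.6 after CPIP+EA. All CPIP libraries lay below both other groups, with a log2 fold change of 0.22 ± 0.059 (SE) for CPIP+EA against CPIP and an adjusted p of 0.996 (limma, Benjamini-Hochberg). Rats have a second gene of high similarity, Ndufa10l1, whose reads could have been divided with Ndufa10 by the counting method. Ndufa10l1 was listed at 20.63, 14 and 0 FPKM in Sham, 18.71, 17.99 and 17.36 after CPIP and 0, 0.01 and 0.08 after CPIP+EA. Near-zero values thus stood in 4 libraries of 2 groups, and each of the 3 CPIP libraries was high. Its adjusted p in CPIP+EA against CPIP was 0.969 (limma, Benjamini-Hochberg), and without Sham 3, the Sham library at 0, it was 8.24e-06. In CPIP+EA against Sham the adjusted p was 0.275 with all libraries and 1.13e-05 without Sham 3.

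When both rows were added, the pair was at 109.57, 106.06 and 90.85 FPKM in Sham, 103.3, 98.49 and 96.26 after CPIP and 94.52, 100.8 and 89.68 after CPIP+EA. The groups then overlapped, and the log2 fold change for CPIP+EA against CPIP was -0.07 ± 0.080 (SE), opposite in sign to that of Ndufa10 alone. The sum fell in CPIP against Sham by 0.04 log2 units, with an SE of 0.080, against 0.16 for Ndufa10 alone. The differences of Ndufa10 and of Ndufa10l1 between groups are therefore uncertain as differences of either gene.

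Uqcrc2 and Sdha, whose values are given above, were higher in CPIP+EA than in CPIP by log2 fold changes of 0.13 ± 0.054 and 0.11 ± 0.048 (SE), each with an adjusted p of 0.996 (limma, Benjamini-Hochberg). In both genes CPIP+EA overlapped Sham. Cox5a, a matrix-side subunit of complex IV, was at 313.51, 316.56 and 318.27 FPKM in Sham, 317.58, 285.66 and 304.33 after CPIP and 334.88, 333.05 and 329.96 after CPIP+EA. CPIP+EA lay above both other groups, by log2 fold changes of 0.14 against CPIP and 0.07 against Sham. The adjusted p were 0.996 and 0.701 (limma, Benjamini-Hochberg). Over the alternative settings the change of Cox5a lay between 0.10 and 0.17 against CPIP and between 0.00022 and 0.08 against Sham. Among the remaining genes without overlap in this comparison were Atp5b, Ndufs1, Atp5a1 and Atp5sl, each with a log2 fold change between 0.10 and 0.17. Atp5a1 is the alpha subunit of ATP synthase. Atp5sl, which RefSeq names Dmac2, is an assembly factor that was placed in complex V only by its symbol.

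**Figure D4:**
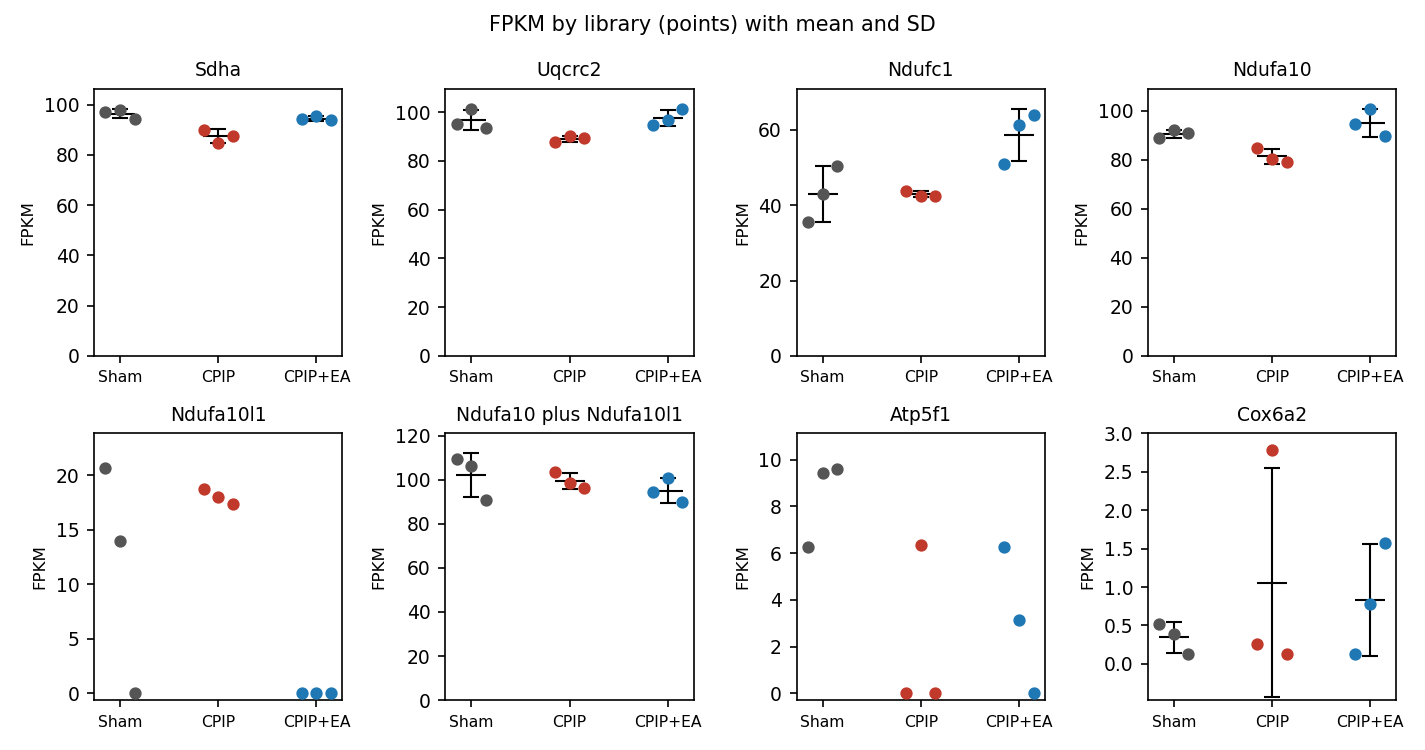
FPKM of 7 genes and of the sum of Ndufa10 and Ndufa10l1 in each library, with points for libraries and black bars for the mean and SD of 3 libraries, which are left out for the genes listed at 0. Sdha, Uqcrc2 and Ndufa10 are lowest in CPIP, the sum of Ndufa10 and Ndufa10l1 overlaps between groups, and the highest point of Cox6a2 is CPIP 2. The SD bar of Cox6a2 in CPIP reaches below 0.

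CPIP+EA against Sham gave no common direction. At an unadjusted p under 0.05, 1 gene was higher (Ndufc1) and 3 were lower (Ndufaf1, Ndufa10l1 and Atp5o), beside 6.59% and 5.63% of all genes tested. In 4 genes every CPIP+EA library lay above every Sham library and in 3 below, beside 8.87% and 7.32% of all genes. The change was above 0 in 43 of 89 genes, against 8662 of 17187 genes tested, with median log2 fold changes of -0.02 and 0.00. The count at an unadjusted p under 0.05 was 7 without Sham 1 or without CPIP+EA 3, 7 on a TPM scale and 10 after quantile normalization, and the median was -0.06 without Sham 1, 0.01 without Sham 2, 0.04 without Sham 3 and 0.05 without CPIP+EA 1. The change was above 0 in 9 of 9 skeletal muscle markers (median 0.96 log2 units), 6 of 6 neutrophil markers (0.80) and 4 of 4 adipocyte markers (0.56, with 1 past the threshold). It was also above 0 in 4 of 6 erythroid markers (0.02). It was below 0 in 6 of 10 neuron markers (-0.07), 6 of 6 Schwann cell markers (-0.45) and 6 of 6 pericyte markers (-0.19). The same held for 4 of 6 satellite glia markers (-0.07), 3 of 6 macrophage markers (-0.02) and 3 of 5 endothelium markers (-0.12). The part of these markers in the comparison was not tested. Ndufaf4, an assembly factor of complex I, was among the 4 that lay above, at 10.08, 11.13 and 11.18 FPKM in Sham and 11.56, 12.21 and 12.04 after CPIP+EA, with an adjusted p of 0.494 (limma, Benjamini-Hochberg). Cox7a1 was among the 3 that lay below, with a log2 fold change of -0.12.

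Summed over the 89 genes, the chain was at 14445 ± 1172 FPKM in Sham, 13879 ± 549 after CPIP and 14364 ± 876 after CPIP+EA (SD, n = 3). The differences between these means were smaller than the SD of Sham. As a share of the library's total, the means were 3.14% ± 0.169 in Sham, 3.00% ± 0.115 after CPIP and 3.06% ± 0.0897 after CPIP+EA (SD, n = 3).

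None of the other genes of the pathway passed the threshold either. The electron carrier cytochrome c (Cycs) ranged from 119.98 to 181.51 FPKM and Cyc1, the cytochrome c1 subunit of complex III, from 115.55 to 152.67 FPKM over the 9 libraries, with 0 of these 2 genes at an unadjusted p under 0.05. Of 13 citric acid cycle genes, 0 were at an unadjusted p under 0.05 in any comparison, beside shares of 2.07% to 6.59% of all genes in either direction. In CPIP against Sham 10 of the 13 had a change below 0, beside 8959 of 17187 genes tested, and in CPIP+EA against CPIP 12 had one above 0, beside 9289 of 17187. Of 16 regulators of mitochondrial biogenesis, 0 were at an unadjusted p under 0.05 in CPIP against Sham, beside 4.61% higher and 4.06% lower of all genes. With lists of this size, counts of 0 or 1 lie near these shares. In CPIP+EA against CPIP 1 was higher and 0 lower, beside 2.22% and 2.07% of all genes tested, and in CPIP+EA against Sham 1 was higher and 1 lower, beside 6.59% and 5.63%. The higher one was Gabpb1, a subunit of GABP, with log2 fold changes of 0.22 and 0.25 and adjusted p of 0.996 and 0.327 (limma, Benjamini-Hochberg). The lower one was Ppargc1b, a coactivator of mitochondrial genes, with a log2 fold change of -0.31 and an adjusted p of 0.374 (limma, Benjamini-Hochberg). Ppargc1a, its better-known relative, ranged from 5.81 to 7.61 FPKM with overlap between all groups.

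Of 37 assembly factors outside the symbols above, 1 was higher and 3 were lower in CPIP against Sham at an unadjusted p under 0.05, 3 were higher and 0 lower in CPIP+EA against CPIP, and 3 were higher and 1 lower in CPIP+EA against Sham. Over all genes tested the shares higher and lower were 4.61% and 4.06%, 2.22% and 2.07%, and 6.59% and 5.63%, and several of these counts lay near them. Cmc2, a small protein of complex IV assembly, was at 35.37, 32.99 and 35.28 FPKM in Sham, 31.24, 29.36 and 33.07 after CPIP and 37.89, 39.38 and 39.1 after CPIP+EA. CPIP+EA lay above both other groups, with a log2 fold change of 0.31 ± 0.059 (SE) against CPIP and an adjusted p of 0.944 (limma, Benjamini-Hochberg). Its relative Cmc1 was at 7.89, 8.55 and 9.27 FPKM in Sham, 7.24, 7.35 and 7.84 after CPIP and 9.25, 11.95 and 9.97 after CPIP+EA. CPIP+EA lay above CPIP and overlapped Sham, with a log2 fold change of 0.44 against CPIP and an adjusted p of 0.996 (limma, Benjamini-Hochberg). Of 7 uncoupling and carrier proteins tested, 2 were higher in CPIP+EA than in either other group at an unadjusted p under 0.05, beside 2.22% of all genes tested against CPIP and 6.59% against Sham. These were Vdac1 and Vdac2, channels of the outer mitochondrial membrane, with log2 fold changes against Sham of 0.24 and 0.21 and adjusted p of 0.159 and 0.205 (limma, Benjamini-Hochberg).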

How the data were processed

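RNA-Seq of right L4–6 DRG was analysed in 3 groups (Sham, CPIP and CPIP+EA) of 3 libraries. Reads were cleaned with SOAPnuke by the authors, who deposited FPKM values with 2 decimals for each gene and library. The aligner, genome build and annotation are not given in the sources used here, and counts, and so the depth behind single values, were not used here. Mitochondrially encoded subunits were not analysed here. The authors also deposited 9 columns of their own comparisons, which hold log2 ratios, P-values and Q-values and were not used.

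Genes whose mean reached 0.1 FPKM were fitted as log2(FPKM + 0.5) by the functions lmFit, contrasts.fit and eBayes of limma 3.58.1 (R 4.3.3), the last with its trend option. The 9 libraries entered a joint fit of 3 group means without covariates, and two-sided p-values were adjusted over all genes tested by Benjamini-Hochberg. Fold changes are on this scale and understate those of low genes. The fit was tested on simulated data. The threshold followed the study's methods. Python 3.11.15 was used for tables (pandas 2.3.3, numpy 2.4.6) and figures (matplotlib 3.10.9).

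The genes named were, for each comparison and direction, up to 6 with the smallest p among those at an unadjusted p under 0.05 or without overlap, the 3 highest of each complex, the Sdh genes, the tissue isoform pairs and the 3 of widest range. Other genes without overlap were named after their values were seen, and 1 gene is not reported here by name. The members and lists were chosen with earlier results of these data known. Gene IDs were matched to RefSeq (GRCr8), which held 90 of the 91, 18 of them under another symbol. The alternatives were pseudocounts of 0.1 and 1, no minimum or a mean of at least 1 FPKM, quantile normalization, a TPM scale, other variance settings, the replicate block, fits restricted to the groups compared, the summed Ndufa10 pair, rows added by RefSeq symbol, and each library left out in turn. Same-numbered libraries had correlations of their deviations from the group means between -0.24 and 0.30, so the numbers were not taken as pairs.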

Additional observations from a re-analysis of the deposited data

How the results depend on the processing

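Over the alternatives run, the median log2 fold change of the chain ranged from -0.11 to -0.0023 in CPIP against Sham. The range was 0.01 to 0.10 in CPIP+EA against CPIP and -0.06 to 0.05 in CPIP+EA against Sham. The median thus came near 0 in the first comparison and took both signs in the last. The spread of the library medians within groups, 0.0878 log2 units, was larger than each reported median, so it is no measure of their stability. The number of genes past the threshold stayed at 0 in CPIP against Sham. It was 1 (Ndufa10l1) in CPIP+EA against CPIP when only those groups were fitted, and it ranged from 0 to 1 in both comparisons with CPIP+EA when single libraries were left out, reaching 1 without Sham 3, the library in which Ndufa10l1 is listed at 0. The number of genes at an unadjusted p under 0.05 was less stable. In CPIP against Sham it was 7 as reported, 11 on the TPM scale, 3 without the variance trend and 1 to 12 with single libraries left out, as given above. In CPIP+EA against CPIP it was 5 as reported and 4 to 8 with single libraries left out, at 8 without CPIP+EA 1. In CPIP+EA against Sham it was 4 as reported, 7 on the TPM scale, 10 after quantile normalization and 3 to 7 with single libraries left out, at 7 without Sham 1 or without CPIP+EA 3.

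The libraries share only a replicate number and are not paired by it. With the number as a replicate block, 3 genes were at an unadjusted p under 0.05 in CPIP against Sham. Of 399 values of named genes under alternatives, 397 kept their sign. The other 2 were those of Ndufa10 summed with Ndufa10l1, at -0.0653 in CPIP+EA against CPIP and -0.10 in CPIP+EA against Sham, where the sum itself is what differs. With 3 rats per group and values in FPKM, small differences rest on few libraries. The genes of the chain shared shifts between libraries, which citric acid cycle genes and neuron markers did not share in every library. The part of these shifts in the differences of single genes was not tested.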

Other observations

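Rows outside the symbols used above held further genes to which RefSeq gives such symbols, found by gene ID (12 rows, 11 of them tested). RefSeq lists 3 of the 12 rows as pseudogenes (Uqcr10-ps1, Ndufs5-ps2 and Atp5mk-ps2). Among the others were Cox6b1 (listed as LOC688869, mean 411 FPKM), a complex IV subunit, Atp5if1 (Atpif1, 421 FPKM), the inhibitor of ATP synthase, Ndufa13 (LOC100911483, 199 FPKM) and Ndufs6 (LOC679739, 55.6 FPKM), both of complex I. Their 3 groups overlapped in level. A further row, LOC688022, which RefSeq names Atp5pdl1, was listed at 0.27, 0.4 and 0.27 FPKM in Sham and 0.27, 0.41 and 0.19 FPKM in CPIP+EA, whereas CPIP 1 to 3 had 0. Its adjusted p was 0.0566 in CPIP against Sham and 0.944 in CPIP+EA against CPIP (limma, Benjamini-Hochberg), and it was noticed after its values were seen.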
